A study of Mus musculus with 8 samples.

Results

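The 6 genes described here, called the members, are Cd3g, Cd8a, Lck, Sh2d2a, Cd226 and Il7r, which act in T cell receptor signaling or beside it on the T cell surface. They were chosen by gene symbol, each matched 1 row, and they are 6 of the 752 genes of the authors' deposited table. RNA was sequenced from 8 whole subcutaneous tumors of MC38, a colon adenocarcinoma line of C57BL/6 mice, grown in germ-free wild-type C57BL/6 hosts and taken on day 23. Tumors 11, 17, 18 and 19 came from the group labelled anti-PD-1, in which the hosts received an antibody against PD-1 into the peritoneum. Tumors 36, 37, 39 and 40 came from the group labelled anti-PD-1 + F. nucleatum, in which they received that antibody and Fusobacterium nucleatum ATCC-25586, an oral anaerobe also found in colorectal tumors, by gavage. Both groups thus carried the antibody, and no untreated group is analysed here. The comparison asks what the bacterium adds to PD-1 blockade in the RNA of the tumor. Doses and the age and sex of the hosts are not given in the sources used here, and the labels do not say that each tumor had its own host, so the p-values measure the spread between these 8 tumors.

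T cells recognise a peptide held by an MHC molecule with the T cell receptor, whose chains carry no signaling tail of their own and rely on the CD3 proteins beside them. The co-receptor CD8 binds MHC class I and brings the kinase LCK to the complex, where LCK phosphorylates the CD3 tails and starts the cascade. CD226 adds a costimulatory signal when it binds its ligands on tumor cells, and the interleukin-7 receptor keeps naive and memory T cells alive. PD-1, the target of the antibody given to every host, dampens signals from the T cell receptor and from costimulatory receptors.

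All 6 members had lower mean levels in the F. nucleatum tumors, by a log2 value from -3.70 for Cd226 to -1.21 for Lck and Il7r, with a median of -2.43. None of the 6 passed the test across the table (limma with Benjamini-Hochberg adjustment over 752 genes, adjusted p from 0.0932 to 0.107), and the background was 0% of genes called lower. At an unadjusted limma p under 0.05 stood 6 of the 6 members, against 27.5% of the table called lower at that mark. The authors' deposited table gives a false discovery rate (FDR) under 0.05 to 4 members (Cd8a, Lck, Sh2d2a and Cd226), where 6.25% of its genes are lower with such an FDR. The 4 and 4 log2 values did not overlap in 3 members (Lck, Sh2d2a and Cd226), against 12.4% of the table with no overlap in that direction. The table holds only genes that its authors selected on this same comparison, each with a p no larger than 0.04995 there and a change of more than 1 on the log2 scale. A difference between groups was thus fixed for every gene by the selection, and the limma adjusted p-values are no independent support. Of the 752 genes, 353 were lower. Only these 353 could be called lower, so shares of the whole table understate the background for a lower gene. Among them, 207 had an unadjusted limma p under 0.05, 47 an FDR under 0.05 from the authors, and 93 no overlap. The median log2 difference of these 353 was -1.82. It was -1.48 with the 72 genes listed at 0 in all F. nucleatum tumors set to the level of 3 reads in those tumors. Here and below the anti-PD-1 values were left as they are, so such medians can only move toward 0 by construction. In RNA from whole tumors, fewer cells of a type and less RNA per cell cannot be told apart.

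Reads of each gene could be recovered from the deposited values, and library totals were not analysed here. Recovered reads in the 752 genes ranged from 97511 to 308139 per tumor, and 3 reads, taken as the smallest level told from 0, equalled a normalized count of 2.37 to 4.66. Tumors 36 and 37 stood apart in genes of skeletal muscle and skin. The 15 listed muscle markers summed to 432.5 FPKM in tumor 36, 22.8 in tumor 37, 4.30 in tumor 39 and 3.01 in tumor 40. With anti-PD-1 they summed to 1.98 to 2.55 FPKM, below every F. nucleatum tumor, so leaving out tumors 36 and 37 does not remove this difference. The 12 keratinocyte markers in the table, of 15 listed, summed to 299.8 FPKM in tumor 37 and to 0.963 to 1.66 elsewhere. In the anti-PD-1 tumors 4 of the muscle and 8 of the keratinocyte markers were listed at 0. Red blood cell markers (7 of 8 listed) summed to 357.7 to 657.7 FPKM with anti-PD-1 and 582.4 to 1457 FPKM with F. nucleatum. The part of these tissues in the results below was not tested. Values without tumors 36 and 37 are given for the differences, pairs, correlations and lists of genes, but not for the nearest genes. The F. nucleatum group then holds only tumors 39 and 40, which were the lowest of the 8 tumors in Cd3g, Cd8a and Lck. The differences of these members thus grow by the choice of tumors.

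The promoters of Cd3g, Cd8a and Lck, the receptor, co-receptor and kinase of the first signaling step, are shown. Sh2d2a and Cd226 had no promoter in the source used, and the Il7r window overlapped an annotated exon. Lower mRNA does not set these genes apart, since all 6 members were lower. The sequences are from RefSeq on GRCm38.p6 (the assembly of mm10), which held promoters of 4 of the 6 members, and cover bases -250 to -21 before the start of transcription on the strand of the gene. They lie at chr9:44980452-44980681 (minus strand) for Cd3g, chr6:71373177-71373406 (plus strand) for Cd8a, and chr4:129573662-129573891 and chr4:129558393-129558622 (minus strand) for the distal and proximal starts of Lck. Capitals mark matches on either strand to the ETS form AGGAAG or the RUNX form TGTGGT. They also mark the letters CAGNTG, a form of the E box, and no matches overlapped. Other spellings of the E box were not searched. The letters TATAAA of the core promoter box were searched on both strands too, and were found in none of the windows shown.
Cd3g: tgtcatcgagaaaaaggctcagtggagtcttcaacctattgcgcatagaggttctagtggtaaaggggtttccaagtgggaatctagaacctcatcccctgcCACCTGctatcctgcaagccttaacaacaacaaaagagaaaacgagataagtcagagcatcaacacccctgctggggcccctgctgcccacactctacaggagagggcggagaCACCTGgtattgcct
Cd8a: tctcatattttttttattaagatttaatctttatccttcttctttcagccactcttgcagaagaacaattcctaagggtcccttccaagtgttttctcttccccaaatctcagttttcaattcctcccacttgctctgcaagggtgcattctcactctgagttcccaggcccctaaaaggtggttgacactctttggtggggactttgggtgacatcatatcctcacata
Lck, distal start: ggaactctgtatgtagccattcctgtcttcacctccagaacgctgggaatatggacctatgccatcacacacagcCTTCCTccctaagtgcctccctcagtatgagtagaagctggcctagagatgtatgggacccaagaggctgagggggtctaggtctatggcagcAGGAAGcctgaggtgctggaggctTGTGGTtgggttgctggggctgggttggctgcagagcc
Lck, proximal start: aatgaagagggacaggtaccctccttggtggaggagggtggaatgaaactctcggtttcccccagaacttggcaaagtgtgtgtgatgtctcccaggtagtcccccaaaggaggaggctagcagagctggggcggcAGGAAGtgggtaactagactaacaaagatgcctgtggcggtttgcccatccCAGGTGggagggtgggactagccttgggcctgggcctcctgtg
The Cd3g window held 2 matches to this E box form, at -148 and -35, and none to the other letters searched. The distal Lck window held 2 ETS matches and 1 RUNX match, and the proximal window 1 ETS match and 1 match to the E box form. The Cd8a window held no match, which says only that these letters are not in it. Among 32817 RefSeq mouse promoter windows of the same length, 27.2% held the ETS form, 13.2% the RUNX form, 42.1% the E box form and 11.8% the core promoter box. A match is thus a common feature and a description only.

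Cd3g (chromosome 9, 44969572 to 44980431, GRCm38, minus strand) encodes the CD3 gamma chain, which couples the T cell receptor to its signaling machinery. Its normalized counts, which are reads divided by a factor for each library, were 103 in tumor 11, 191 in tumor 17, 41.7 in tumor 18 and 48.9 in tumor 19. In the F. nucleatum tumors they were 44.1 in tumor 36, 27.8 in tumor 37, 7.26 in tumor 39 and 11.6 in tumor 40. Tumors 11 and 17 stood well above the rest, tumors 39 and 40 well below, and tumor 36 lay between tumors 18 and 19, so the groups overlapped by this 1 tumor. Tumor 36 held 55 recovered reads of Cd3g and tumor 39 held 9 (exact Poisson 95% interval 4.12 to 17.1, which covers counting error only). The level per transcript length (in FPKM, which scales reads by transcript length and library size) was 0.458 ± 0.330 with anti-PD-1 and 0.106 ± 0.0834 in the other group (mean ± SD, n = 4 each). The log2 difference was -2.07 ± 0.749 (SE; limma adjusted p = 0.09996, FDR 0.172 in the authors' deposited table), and the exact permutation p was 0.0571 on the log2 values (two-sided), where 70 arrangements allow no value below 0.0286. Without tumors 36 and 37, which leaves only tumors 39 and 40 with F. nucleatum, the log2 difference was -2.98 (limma adjusted p = 0.0492).

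Cd8a (chromosome 6, 71373427 to 71379173, plus strand) encodes the CD8 alpha chain, the co-receptor of cytotoxic T cells. Its normalized counts were 174 in tumor 11, 193 in tumor 17, 87.4 in tumor 18 and 45.7 in tumor 19. With F. nucleatum they were 22.5 in tumor 36, 46.4 in tumor 37, 10.5 in tumor 39 and 3.17 in tumor 40. The lowest anti-PD-1 tumor, 19, and the highest F. nucleatum tumor, 37, were level within counting error, at 58 reads (normalized interval 34.7 to 59.1) and 40 reads (33.1 to 63.1). On the FPKM scale the order of these neighbours turned, with 0.194 in tumor 19 and 0.190 in tumor 37, and the groups did not overlap. Cd8a had the widest spread in the F. nucleatum group among the 6 members on the log2 scale, and its low end rests on the 3 reads of tumor 40 (exact Poisson 95% interval 0.619 to 8.77). The log2 difference was -2.84 ± 0.888 (SE; limma adjusted p = 0.0932). The exact permutation p was 0.0571 on log2 values and 0.0286 on FPKM. Without tumors 36 and 37 the difference was -3.97 (limma adjusted p = 0.0331).

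**Figure D1:**
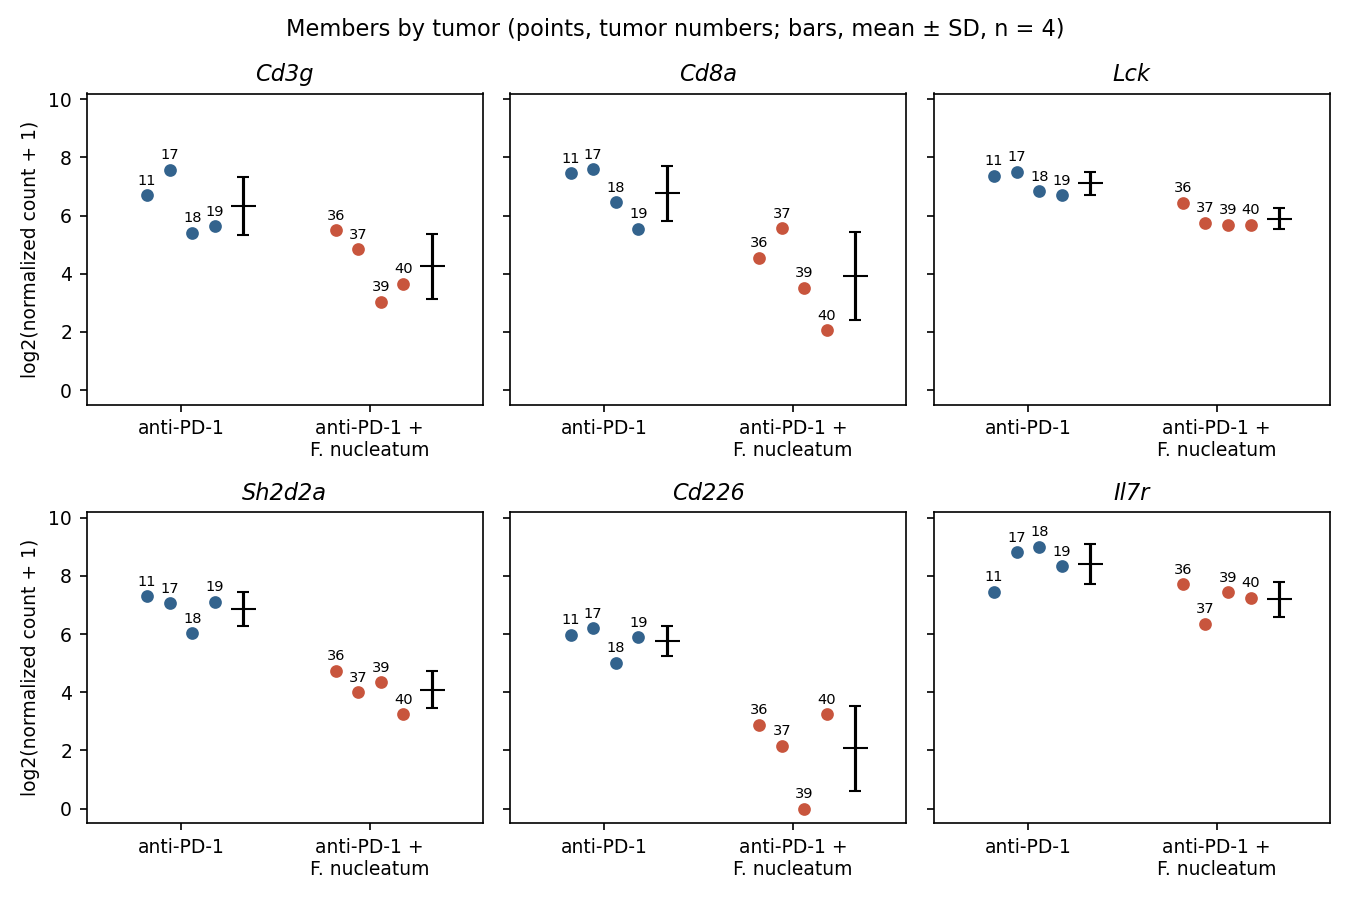
Log2(normalized count + 1) of the 6 members in each tumor (points, labelled by tumor number), with the mean ± SD of the 4 tumors of each group beside them. The groups are apart in Lck, Sh2d2a and Cd226 and overlap by 1 tumor or 1 pair of tumors in Cd3g, Cd8a and Il7r; Cd226 is at 0 in tumor 39.

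Lck (chromosome 4, 129548344 to 129573641, minus strand) encodes the SRC-family kinase that binds the tails of CD4 and CD8 and phosphorylates CD3. Its normalized counts were 164 in tumor 11, 182 in tumor 17, 114 in tumor 18 and 103 in tumor 19. With F. nucleatum they were 85.8 in tumor 36, 53.3 in tumor 37, 50.8 in tumor 39 and 50.7 in tumor 40. The groups did not overlap, tumors 37, 39 and 40 were level with each other within counting error, and tumor 36 stood above them. Lck had the smallest spread of the 6 members in both groups (SD of log2 values 0.394 with anti-PD-1 and 0.363 with the bacterium, n = 4 each). Its level was 0.737 ± 0.204 FPKM with anti-PD-1 and 0.311 ± 0.0996 FPKM with F. nucleatum, a 2.37-fold lower mean. The log2 difference was -1.21 ± 0.268 (SE; limma adjusted p = 0.101, exact permutation p = 0.0286, the smallest the design allows), and -1.41 without tumors 36 and 37 (limma adjusted p = 0.0357). The annotation places the microRNA gene Mir8119 inside Lck on the same strand, and no other member overlaps another gene.

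Sh2d2a (chromosome 3, 87846755 to 87855722, plus strand) encodes TSAd, an adapter with an SH2 domain that is made by activated T cells and binds LCK. Its normalized counts were 158 in tumor 11, 132 in tumor 17, 64.0 in tumor 18 and 137 in tumor 19. With F. nucleatum they were 25.7 in tumor 36, 15.1 in tumor 37, 19.4 in tumor 39 and 8.45 in tumor 40. The groups lay 1.29 apart on the log2 scale between their nearest tumors, 18 and 36, with no overlap. Its level was 0.321 ± 0.111 FPKM with anti-PD-1 and 0.0429 ± 0.0198 FPKM with the bacterium (mean ± SD, n = 4 each), a 7.48-fold lower mean. The log2 difference was -2.79 ± 0.430 (SE; limma adjusted p = 0.0932, exact permutation p = 0.0286), and Sh2d2a had the lowest FDR of the 6 in the authors' deposited table, 1.12e-07. Without tumors 36 and 37 the difference was -3.08 (limma adjusted p = 0.0226).

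Cd226 (chromosome 18, 89176967 to 89272229, plus strand) encodes DNAM-1, a costimulatory receptor of T cells and NK cells. Its normalized counts were 62.2 in tumor 11, 73.0 in tumor 17, 31.5 in tumor 18 and 58.4 in tumor 19. With F. nucleatum they were 6.42 in tumor 36, 3.48 in tumor 37, 0 in tumor 39 and 8.45 in tumor 40. Every F. nucleatum tumor lay far below every anti-PD-1 tumor, and the nearest tumors of the groups, 18 and 40, were 1.78 apart on the log2 scale. The F. nucleatum group held 19 reads in all, from 0 to 8 per tumor, against 217 with anti-PD-1, and the 0 reads of tumor 39 allow a normalized count of up to 2.42 by the limit of 3 reads, or 2.97 by the exact Poisson 95% interval. The level was 0.179 ± 0.0568 FPKM with anti-PD-1 and 0.0119 ± 0.0104 FPKM with F. nucleatum, a 15.0-fold lower mean. This was the largest log2 difference of the 6, -3.70 ± 0.772 (SE; limma adjusted p = 0.0932, exact permutation p = 0.0286, FDR 2.15e-05 in the authors' deposited table). It ranged from -4.09 to -3.01 as each tumor was left out, and was -4.16 without tumors 36 and 37 (limma adjusted p = 0.0492).

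Il7r (chromosome 15, 9505788 to 9530176, minus strand) encodes the alpha chain of the interleukin-7 receptor, which marks naive and memory T cells and innate lymphoid cells. Its normalized counts were 175 in tumor 11, 450.3 in tumor 17, 512 in tumor 18 and 320.2 in tumor 19. With F. nucleatum they were 209 in tumor 36, 81.1 in tumor 37, 173 in tumor 39 and 151 in tumor 40. Here tumor 11, one of the highest for the other members, was the lowest of its group, and it lay below tumor 36. The level was 1.21 ± 0.483 FPKM with anti-PD-1 and 0.515 ± 0.192 FPKM with the bacterium (mean ± SD, n = 4 each). The log2 difference was -1.21 ± 0.453 (SE; limma adjusted p = 0.107, exact permutation p = 0.0571, FDR 0.119 in the authors' deposited table). It was -0.93 without tumor 37 and -1.05 without tumors 36 and 37 (limma adjusted p = 0.152 and 0.202).

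**Figure D2:**
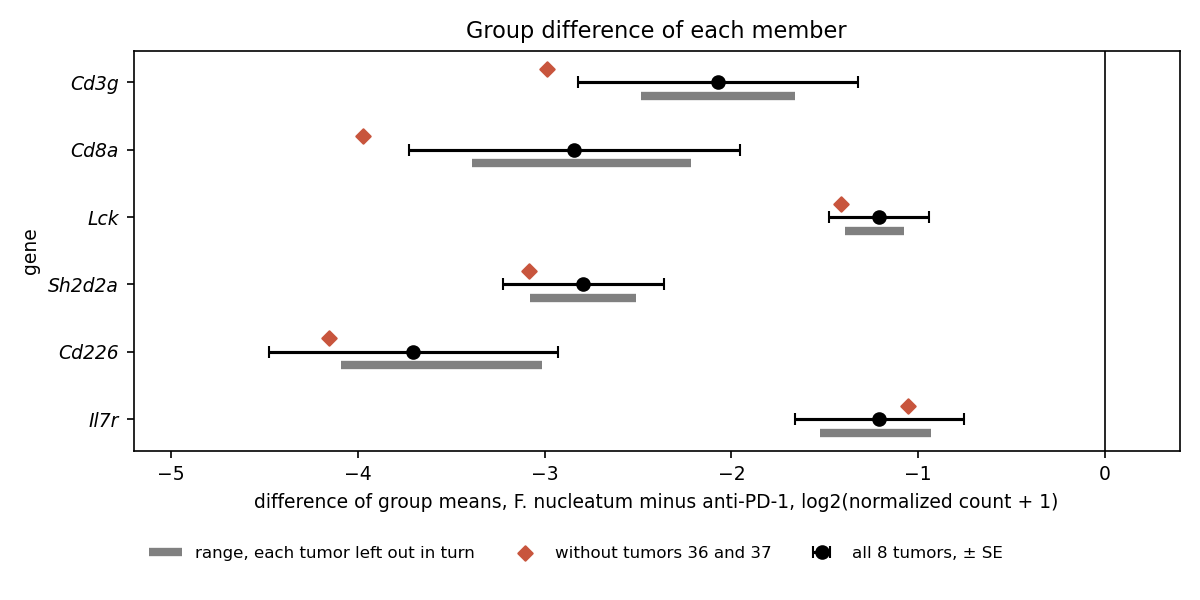
Difference of the group means of log2(normalized count + 1), F. nucleatum minus anti-PD-1, for each member: points and bars give the value ± SE with all 8 tumors, grey bars the range as each tumor is left out in turn, diamonds the value without tumors 36 and 37. Every value lies below 0, from -4.16 for Cd226 without tumors 36 and 37 to -0.93 for Il7r without tumor 37.

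Which members passed the limma test depended on the tumors and the scaling. Without tumor 36 alone, 4 members passed (Cd3g, Lck, Sh2d2a and Cd226) with 127 lower genes of the table. Without tumor 37 alone, Sh2d2a passed with 8 lower genes, and without both tumors the 5 members other than Il7r passed with 83. The tumors were also scaled to share 1 median over the 297 genes above 0 in all of them, which adds 0.76 to every log2 difference. These 297 genes were themselves selected on this comparison, so their median is no neutral reference for the libraries. With this scaling all 6 members were still lower. Sh2d2a (-2.03) and Cd226 (-2.94) then passed at a limma adjusted p of 0.0440, and the differences of Lck and Il7r shrank to -0.45 each.

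Per transcript length, Il7r had the highest mean in both groups and Lck the second, and Cd226 the lowest. The order with anti-PD-1 was Il7r, Lck, Cd8a, Cd3g, Sh2d2a and Cd226 (from 1.21 to 0.179 FPKM), and with F. nucleatum Cd3g stood before Cd8a. Every pair of neighbours in these orders overlapped over the 4 tumors except Lck and Cd3g with F. nucleatum, where Lck (0.255 to 0.460 FPKM) was above Cd3g (0.0313 to 0.214 FPKM) in 4 of 4 tumors. Within tumors, Lck was also above Cd8a, and Sh2d2a above Cd226, in 4 of 4 anti-PD-1 tumors. The other neighbours kept their order in 2 or 3 of 4 tumors. The 6 genes together summed to 3.44 ± 0.923 FPKM with anti-PD-1 and 1.07 ± 0.340 FPKM in the other group (mean ± SD, n = 4 each). Of this sum, Lck held 21.5% with anti-PD-1 (19.0% to 26.2% over the 4 tumors) and 29.0% with F. nucleatum (26.9% to 30.1%), with no overlap between the groups. Sh2d2a held 9.73% ± 4.13 and 3.92% ± 1.18 (mean ± SD), and Cd226 5.30% ± 1.71 and 1.17% ± 1.19. Each of these 3 shares had an exact permutation p of 0.0286 and an adjusted p of 0.0571 over the 6 members, of which 4 at that smallest p would be needed to pass. In tumors 39 and 40 alone, Lck held 26.9% and 30.1%, Sh2d2a 5.09% and 2.29%, and Cd226 0% and 2.83%. Il7r held 36.4% ± 15.6 and 48.4% ± 14.0 (exact permutation p = 0.257).

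**Figure D3:**
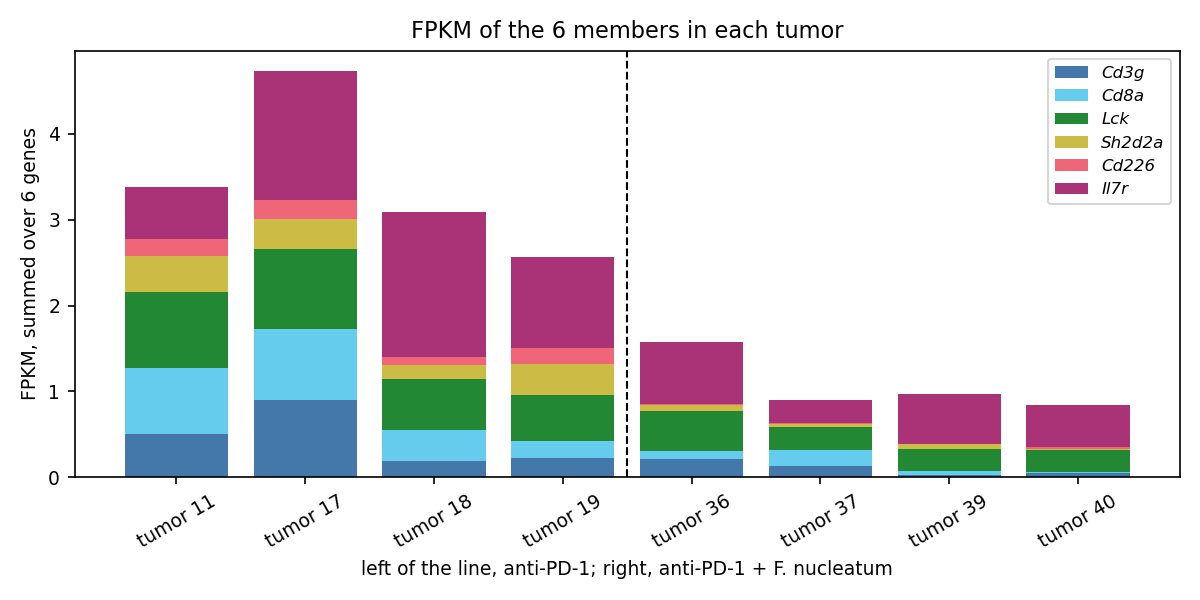
FPKM of the 6 members stacked for each tumor, anti-PD-1 to the left of the dashed line and anti-PD-1 + F. nucleatum to the right. The 4 anti-PD-1 tumors sum to between 2.57 and 4.73 FPKM and the F. nucleatum tumors to between 0.847 and 1.58 FPKM.

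Lck was lower by less than Sh2d2a and Cd226 in the F. nucleatum tumors. For each of the 15 pairs, the log2 difference between both genes in a tumor was compared between groups by a two-sided exact permutation test, with Benjamini-Hochberg adjustment over the 15. Lck exceeded Sh2d2a by 0.23 ± 0.53 with anti-PD-1 and by 1.81 ± 0.46 in the other group (mean ± SD over 4 tumors). For this pair the exact permutation p was 0.0286 and the adjusted p 0.143. Lck also exceeded Cd226 by 1.33 ± 0.41 and 3.82 ± 1.35, and Cd226 minus Il7r was -2.63 ± 1.03 and -5.12 ± 1.59, at the same exact permutation p and adjusted p. These were the 3 pairs with an unadjusted p under 0.05, and 9 of the 15 at the smallest possible p would be needed for an adjusted p under 0.05, so the adjustment says little about them. The differences between groups in these pairs, with tumors 36 and 37 left out, were 1.67 for Lck minus Sh2d2a, 2.74 for Lck minus Cd226 and -3.10 for Cd226 minus Il7r. Cd8a and Cd3g, co-receptor and receptor subunit, differed by 0.77 ± 0.624 (SE) between groups, with Cd3g relatively higher under F. nucleatum (exact permutation p = 0.286). Low counts compress differences on this scale, since 1 is added to each normalized count.

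**Figure D4:**
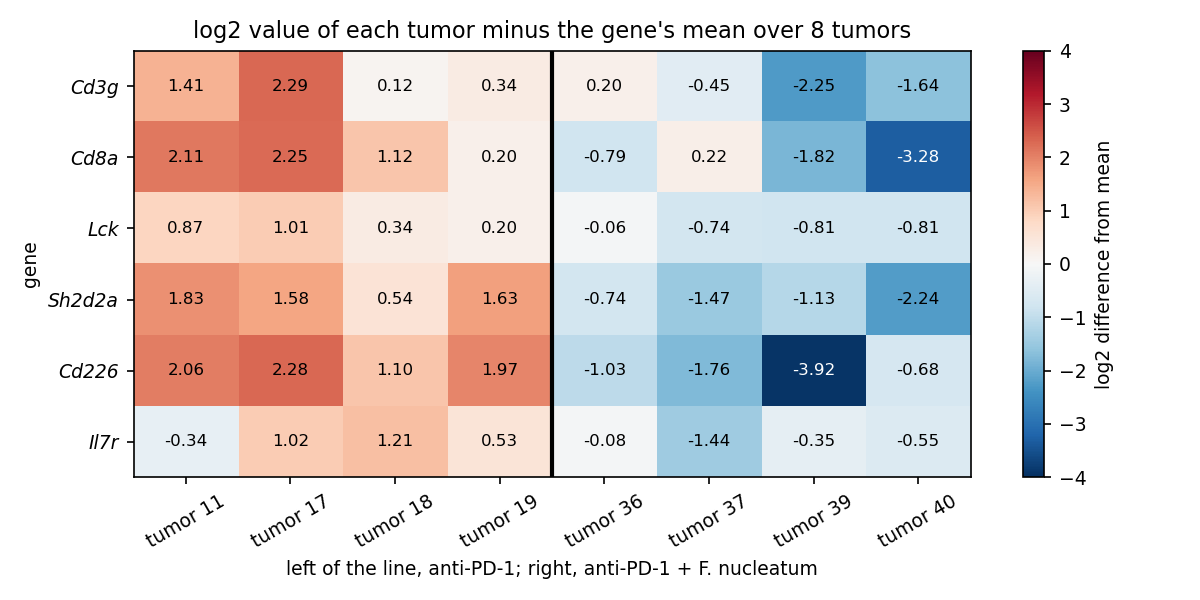
Log2(normalized count + 1) of each member in each tumor minus the mean of that gene over the 8 tumors, on a color scale from -4 to 4, anti-PD-1 tumors to the left of the line. Values above the mean fill the left side except Il7r in tumor 11 (-0.34), and values below it the right side except Cd3g in tumor 36 (0.20) and Cd8a in tumor 37 (0.22).

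Within the groups, Cd3g and Lck followed each other most closely. The correlation of their deviations from the group means was 0.87 over 8 tumors, that of Cd3g and Cd8a 0.72, and that of Cd3g and Cd226 0.59. Il7r followed none of the other members in this way (from -0.34 with Cd8a to 0.09 with Lck). Over the 6 tumors without 36 and 37 the correlation was 0.92 for Cd3g and Lck, 0.56 for Cd3g and Cd8a and 0.50 for Cd3g and Cd226. For Cd8a and Lck it was 0.585 over 8 tumors and 0.82 over these 6. Tumors 39 and 40, then alone in their group, deviate from their mean by equal amounts in opposite directions. Tumor 17 was highest of the 8 in Cd3g, Cd8a, Lck and Cd226, tumor 11 in Sh2d2a and tumor 18 in Il7r. Tumor 40 was lowest in Cd8a, Lck and Sh2d2a, tumor 39 in Cd3g and Cd226, and tumor 37 in Il7r. The values of a tumor share 1 library and 1 scaling factor, so these correlations are descriptions and carry no p.

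The other genes of the pathway were taken from 6 lists by role, 100 genes with the members, of which the table held 28, and each of the 28 had a lower mean with the bacterium. Apart from the members these were 22 of 94 genes, and their median log2 difference was -1.83 (-1.81 with Cd40lg, which was at 0 in all F. nucleatum tumors, set to 3 reads). None of the 22 passed in limma. Of the 22, 20 had an unadjusted limma p under 0.05, a mark met by 207 of the 353 lower genes (27.5% of the table). The authors' deposited table gives Slamf7 (0.0199) and Lax1 (0.0365) an FDR under 0.05, as it does to 47 of the 353 lower genes (6.25% of the table). In 11 of the 22 the 4 and 4 values did not overlap, beside 93 of the 353 lower genes (12.4% of the table). With tumors 36 and 37 left out, all 22 were still lower. Of them 19 then had no overlap, beside 212 of the 377 genes then lower (28.2% of the table). Values of the 72 listed genes outside the table, among them Cd3e, Cd247, Cd4, Cd28, Zap70 and Tigit, were not analysed here, so the counts do not describe the pathway as a whole.

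Of the T cell receptor complex, the table held 3 of 11 listed genes. Cd3d, the CD3 delta chain, whose gene starts head to head with Cd3g on the opposite strand with 1354 bases between them, differed by -2.78 ± 1.09 (SE), with no overlap between groups. It had 27 reads in tumor 36, 16 in tumor 37, 9 in tumor 39 and 0 in tumor 40, and 39 to 87 with anti-PD-1. Trac, the constant region of the receptor alpha chain, differed by -1.64 ± 0.635 (SE), and tumors 18 (43.7 normalized counts) and 36 (62.6) crossed as they did in Cd3g.

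Among co-receptors and accessory molecules, 8 of 19 were in the table. Cd8b1, the CD8 beta chain that pairs with the product of Cd8a, had normalized counts of 28.4 to 88.5 with anti-PD-1, and of 4.01 in tumor 36, 31.3 in tumor 37, 16.1 in tumor 39 and 0 in tumor 40. Its log2 difference was -2.89 ± 1.18 (SE), and tumor 37 was again the F. nucleatum tumor within the anti-PD-1 range, as for Cd8a. Slamf7, a receptor of activated lymphocytes, differed by -1.84 ± 0.499 with no overlap. Cd2, an adhesion receptor, differed by -1.78 ± 0.553, Cd6 by -1.58 ± 0.554, the costimulator Icos by -1.44 ± 0.585 and the inhibitory receptor Ctla4 by -2.80 ± 1.11 (SE).

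Proximal signaling genes numbered 10 of 33. Lat, the scaffold that the kinase cascade phosphorylates, differed by -1.25 ± 0.395 (SE), about as far as Lck, and Skap1, an adapter for integrin activation, by -1.77 ± 0.602. Themis, a T cell protein that tunes receptor signals, differed by -2.40 ± 0.708. Lax1, a negative regulator related to LAT, had the largest difference of the list, -3.52 on the log2 scale. Sh2d1a differed by -2.58 ± 1.07 and Ubash3a by -1.56 ± 0.624 (SE). Txk, a TEC-family kinase, had 0.0400 ± 0.0294 FPKM with anti-PD-1 and 0.0109 ± 0.00922 FPKM with the bacterium (SD). Themis, Lat, Lax1 and the members Lck and Sh2d2a were the 5 genes of this list with no overlap between groups, beside 93 of the 353 lower genes (12.4% of the table).

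Of the CD226 axis the table held Cd226 and Cd96, a receptor that shares a ligand with CD226. Cd96 had 0.138 ± 0.0237 FPKM with anti-PD-1 and 0.0213 ± 0.0254 FPKM with the bacterium (SD; log2 difference -2.93 ± 0.843, SE), with no overlap. Of the interleukin-7 receptor axis it held 4 of 16 genes. Il2rb, a chain of the interleukin-2 and interleukin-15 receptors, differed by -1.18 ± 0.419, Il2ra by -1.73 ± 0.552 and Cish, a target and inhibitor of STAT5 signaling, by -1.07 ± 0.268 (SE). Of 14 T cell transcription factors it held Eomes, which NK cells also express, at -2.90 ± 1.04 (SE).

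**Figure D5:**
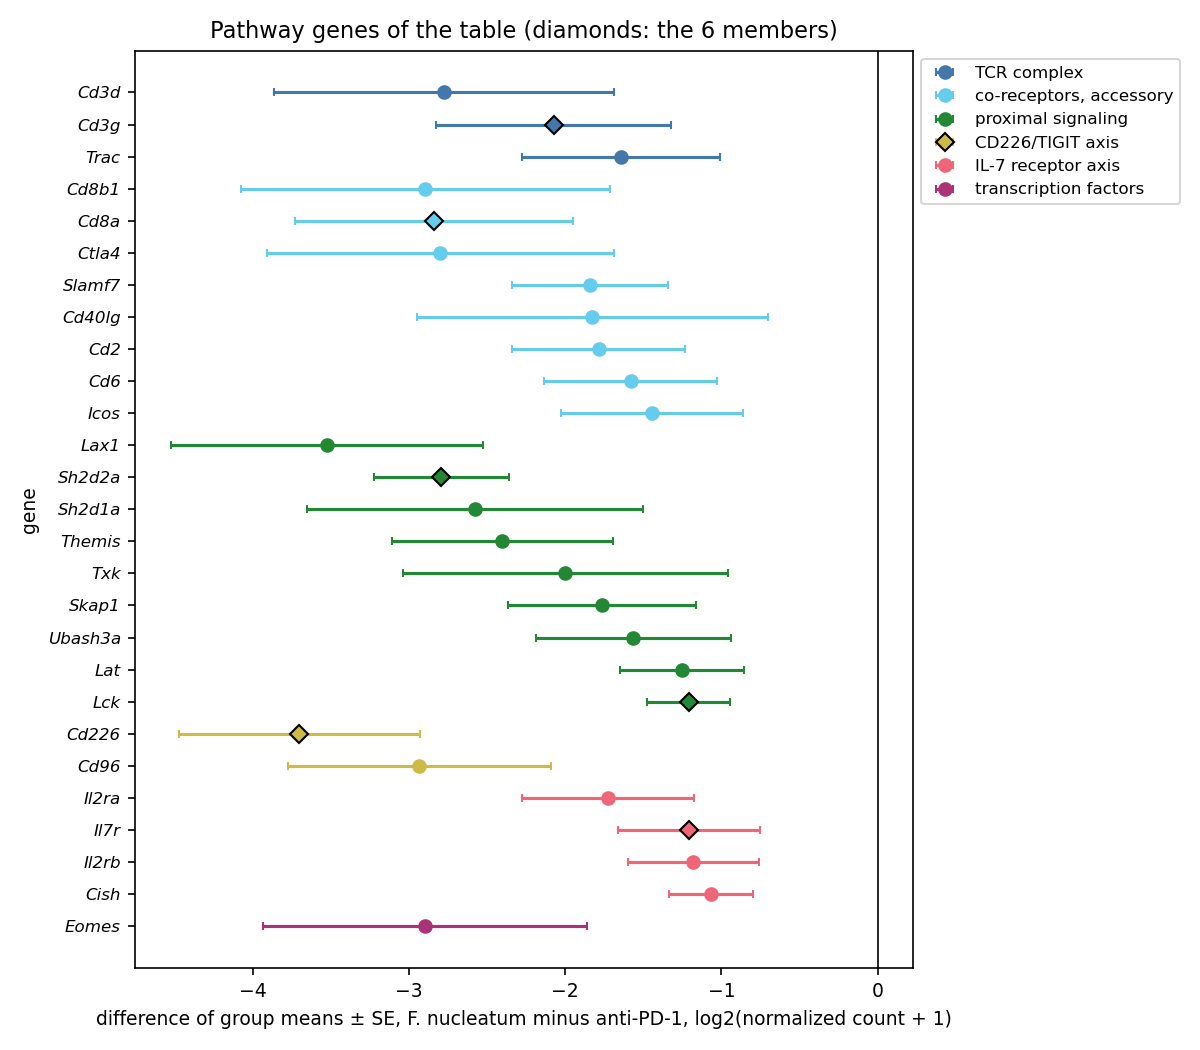
Difference of the group means of log2(normalized count + 1) ± SE, F. nucleatum minus anti-PD-1, for 27 of the 28 pathway genes in the table, colored by list and ordered by size within a list; diamonds are the 6 members. All 27 lie below 0, from -3.70 for Cd226 to -1.07 for Cish.

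In the deposited annotation, 19 genes of the table carry the term T cell receptor signaling pathway in KEGG (13) or in the GO biological processes (6), and each of the 19 was lower (median -2.07 on the log2 scale, also with the 2 genes at 0 set to 3 reads). Each of the 19 was lower also without tumors 36 and 37 (median -2.32). Of the members, 4 are among them (Cd3g, Cd8a and Lck through KEGG and Cd226 through GO). Sh2d2a is listed there under VEGF signaling, and Il7r under Jak-STAT and PI3K-Akt signaling. Among the 12 of these genes with the largest fold changes in the authors' deposited table, Pdcd1, which encodes PD-1, differed by -2.44 ± 0.414 (SE). Others were Csf2, Il2, Cd40lg and 7 genes described above.

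Listed markers of NK and innate lymphoid cells were lower in the same tumors. The list is not specific to these cells, since Eomes also stands in the list of T cell transcription factors. Of 19 NK and innate lymphoid cell markers 9 were in the table. Each was lower, and the groups did not overlap in 7, beside 93 of the 353 lower genes (12.4% of a table selected on this comparison). Without tumors 36 and 37 all 9 were lower with no overlap, beside 212 of the 377 genes then lower (28.2% of the table). Their median log2 difference was -2.90 (-2.73 with Klra9 set to 3 reads), and Klra9 was listed at 0 in all 4 F. nucleatum tumors. Their summed level ranged from 5.38 to 8.66 FPKM with anti-PD-1 and from 0.149 to 3.07 FPKM with F. nucleatum. NK cells and innate lymphoid cells also express some of the members, such as Cd226, Lck and Il7r, and the part of these cells in the differences was not tested. Of 15 myeloid markers only Itgax was in the table, at -1.30 ± 0.529 (SE), and none of 9 B cell or 5 endothelial markers was.

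The genes of the table with the pattern most like the members were found by Pearson correlation with the mean of the 6 centred log2 values over the 8 tumors. They were Pdcd1 (r = 0.96), A430093F15Rik (0.96), Gzmk, a granzyme of cytotoxic lymphocytes (0.96), H2-Q6, an MHC class I gene (0.96), Themis (0.95) and Snord92, a small nucleolar RNA (0.95), which was listed at 0 in all 4 F. nucleatum tumors. This measure includes the difference between groups, on which all genes were selected. With deviations from the group means in its place the 6 nearest genes were Lat (0.95), Trac (0.93), Ctsw, a protease of cytotoxic lymphocytes (0.93), Themis (0.93), Gm5436 (0.92) and 1110002E22Rik (0.92), of which Themis was shared with the first 6. Gm5436 and 1110002E22Rik had higher means with F. nucleatum (by 1.24 ± 0.424 and 2.15 ± 1.21, SE).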

How the data were processed

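RNA of whole tumors was extracted with TRIzol for stranded TruSeq sequencing, per the labels' protocols. Tools in the submitters' processing notes are STAR 2.5, DESeq 1.22.1, Cuffnorm and FastQC, and the build is mm10, without the role of each. For every gene and tumor, the authors' deposited table gives a log2 value and an FPKM value, with the authors' log2 fold change, p-value and FDR, whose test the sources used here do not state. Checked on the values, the log2 values deposited are log2 of a normalized count plus 1, and 100% of the values above 0 were whole reads within 0.1 read, so reads were recovered.

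Groups followed the labels. The difference of group means of the deposited log2 values was fitted over all 752 genes in R 4.3.3 by limma 3.58.1 (moderated variances with a trend on the mean, Benjamini-Hochberg adjustment, called at an adjusted p under 0.05), after a test on simulated data. SEs were computed from the SDs of the groups of 4 tumors, not from limma. Exact permutation tests were two-sided. The rest was done in Python 3.11.15 (scipy 1.17.1, pandas 2.3.3, numpy 2.4.6, matplotlib 3.10.9). Gene positions are from GENCODE on GRCm38. Genes named are the 6 members, all listed pathway genes in the table, up to 12 annotated genes by fold change, and the 6 nearest by correlation. The members and lists were chosen with earlier results of these data known. For 1 listed gene no value is reported here. Alternatives were other scales, scalings, models and filters, and tumors left out.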

Additional observations from a re-analysis of the deposited data

Results flagged for a closer look

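Lck in tumor 36 stood apart from the other 3 F. nucleatum tumors. Its log2 value of 6.44 compares with 5.69 to 5.76 in tumors 37, 39 and 40, and its level of 0.460 FPKM with 0.255 to 0.269 FPKM. The gap to the nearest tumor was 0.906 of the range of the group on the log2 scale and 0.931 on the FPKM scale, above Dixon's critical value for 4 samples. Of 12 groups examined on each scale (6 members in both treatment groups) this was the 1 group that stood out. Chance flags about 1 in 20 of the groups examined, so 1 flagged group among 12 is not unusual. The log2 and FPKM scales rest on the same reads and do not count as separate findings. Tumor 36 also had the highest Cd3g, Lck, Sh2d2a and Il7r values of its group and the highest muscle marker sum of all tumors (432.5 FPKM), and the part of the muscle RNA in these values was not tested.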

How the results depend on the processing

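All 96 values of the 6 members under the 16 alternative settings were lower with F. nucleatum. The genes had been selected on this comparison in the same tumors, so the kept direction is no independent support. In 17 of the 96 the member passed at a limma adjusted p under 0.05, where 0 passed in the reported fit. The adjustment ran only over genes selected in this way, so a pass describes the spread between tumors and is no independent support either. The limma count of members passed was 2 with median centring (19 lower and 97 higher genes of the table). It was 5 without tumors 36 and 37 (83 and 43) and 5 with array weights (152 and 86). As each tumor was left out it was 0 to 4 (0 to 127 lower and 0 to 25 higher genes). It stayed at 0 with log2(FPKM + 1), log2(FPKM + 0.1), no trend, voom on the recovered reads and genes with a mean log2 value of at least 3. Il7r passed in none of the 16 settings (adjusted p from 0.0732 to 0.380 in limma). The cause of these changes was not tested. The median difference of the members was -0.39 with log2(FPKM + 1), -1.32 with log2(FPKM + 0.1), where the larger pseudocount relative to these low values compresses differences by construction, -1.67 with median centring and -3.03 without tumors 36 and 37. The count of members without overlap was 6 without tumors 36 and 37, where 212 genes of the table had none in that direction, 3 to 5 as each tumor was left out (102 to 197 genes), 4 on both FPKM scales (85 genes) and 2 with median centring (44 genes). Of the 6 genes nearest to the members, 1 was shared with the 6 found on deviations from the group means. No paired analysis was possible because the labels give the tumors of the groups no shared numbers. Reads per F. nucleatum tumor were as low as 0 to 8 for Cd226, 8 to 32 for Sh2d2a and 3 to 40 for Cd8a.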

Other observations

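Among the annotated genes of T cell receptor signaling that encode products of activated T cells, Il2, Cd40lg and Csf2 had few reads in both groups. Il2, the T cell growth factor interleukin-2, had 25 recovered reads in tumor 11, 7 in tumor 18 and 0 in tumors 17 and 19, and was listed at 0 in all 4 F. nucleatum tumors. Cd40lg, the CD40 ligand of helper T cells, had 15 reads in tumor 17, 7 in tumor 19 and 0 in the other 6 tumors. Csf2, which encodes the cytokine GM-CSF, had 3, 27, 18 and 9 reads in tumors 11, 17, 18 and 19, 6 reads in tumor 40 and 0 in tumors 36, 37 and 39. The anti-PD-1 tumors with Il2 reads and those with Cd40lg reads were different ones, and groups overlapped in all 3 genes. The unadjusted limma p was 0.133 for Il2, 0.147 for Cd40lg and 0.0152 for Csf2.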
